A study of Mus musculus with 9 samples.

Results

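Src family kinase genes were followed in splenic B cells of wild-type C57BL6 mice. The 8 genes were Fgr, Lyn, Fyn, Lck, Blk, Src and Yes1, which encode kinases of the family, and Csk, which encodes the kinase that restrains them, out of 24346 genes in the FPKM files. They were taken by gene symbol and chosen by family membership with the ABC against FO B cell values of these libraries already known, so the values of that comparison are given as a description of the 8 genes, with no p-value. The study compared follicular (FO) B cells from mice 8 wk of age (young FO B cells), the same subset from mice 50 wk of age (aged FO B cells) and age-associated B cells (ABCs), also from 50-wk-old mice. Each group had 3 libraries. The gate for FO B cells included B220hiCD43-CD23+CD21lo and that for ABCs B220hiCD43-CD23-CD21loCD11b+CD11c+. None of the groups carried a transgene or received a treatment, and no ABCs of young mice were among the libraries, so age and subset cannot be told apart when ABCs are set against young FO B cells.

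Src family kinases sit on the inner face of the plasma membrane through lipid anchors. In B cells, Lyn, Blk and Fyn phosphorylate the immunoreceptor tyrosine-based activation motifs (ITAMs) of CD79A and CD79B after the B cell receptor (BCR) is engaged, and Syk then docks there. Lyn also phosphorylates the inhibitory motifs (ITIMs) of receptors such as CD22 and the low-affinity IgG receptor encoded by Fcgr2b, which recruit phosphatases, so that it acts both for and against BCR signals. Fgr is best known from myeloid cells, where it acts downstream of Fc receptors and integrins. Lck and Fyn are best known from T cells, Src and Yes1 are widely expressed, and Csk holds all of them inactive by phosphorylating a tyrosine in the C-terminal tail.

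This tail is shown because the level of Csk was read against the kinases it acts on. The last codons of each coding sequence are given 5′ to 3′ from GENCODE M21 transcripts on GRCm38, with the codon of the tail tyrosine in capitals. The stretches lie at chr4:3789909-3789941 for Lyn, chr4:133000302-133000340 for Fgr, chr10:39563931-39563969 for Fyn, chr2:157469920-157469958 for Src and chr5:32684718-32684756 for Yes1 on the plus strand, and at chr14:63373395-63373427 for Blk and chr4:129548801-129548833 for Lck on the minus strand, each within the last coding exon.
Lyn: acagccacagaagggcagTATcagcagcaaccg
Blk: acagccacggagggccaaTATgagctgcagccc
Lck: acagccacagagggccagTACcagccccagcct
Fgr: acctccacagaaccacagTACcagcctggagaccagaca
Fyn: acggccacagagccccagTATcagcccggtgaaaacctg
Src: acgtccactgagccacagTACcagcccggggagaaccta
Yes1: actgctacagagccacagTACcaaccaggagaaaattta
In Lyn, Blk and Lck 4 codons follow the tyrosine, whereas 6 follow it in Fgr, Fyn, Src and Yes1. Over the 21 pairs of these 7 kinases, the longest run of bases shared by their transcripts was 23 bases. This is far shorter than the sequencing reads, so reads of one kinase could be told from those of another.

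All 8 genes are protein-coding in GENCODE M21. Lyn, at chr4:3678115-3813122 on the plus strand, Fgr, at chr4:132974095-133001910 on the plus strand, and Lck, at chr4:129548344-129573641 on the minus strand, share chromosome 4. Blk lies at chr14:63372836-63417037 on the minus strand, Fyn at chr10:39368855-39565381 on the plus strand, Src at chr2:157418444-157471862 on the plus strand, Yes1 at chr5:32611171-32687057 on the plus strand and Csk at chr9:57626646-57653631 on the minus strand. The library kit does not mark strand, and exons of Lyn, Fyn, Lck and Yes1 overlap the spans of other annotated genes. Whether exons of those genes share the same bases was not examined. Reads from any such bases could not be told apart. The FPKM is 1 value per gene, so isoforms were not separated.

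Depth was similar in all libraries, at approximately 7270000 to 8830000 mapped reads by an estimate from low FPKM values, and 10032 to 10445 genes per library were at 1 FPKM or more. Transcripts of B lineage genes were found in every library. Ms4a1, which encodes CD20, was between 793 and 1236 FPKM. Other B lineage genes were lower in ABCs, with Pax5 at a mean of 29.6 FPKM in aged FO B cells and 20.3 FPKM in ABCs. Ebf1 was at 69.2 and 41.7 FPKM. Admixture of other cells was not tested. Replicate 3 of the ABCs stood apart from the other ABC libraries, with a mean correlation of 0.961 with them across 10375 genes, against 0.969 and 0.972 for replicates 2 and 1. The log2 fold changes of Lck and Fyn, for which it was the lowest library, are therefore also given without it. In bulk samples, fewer cells of a type and less RNA per cell cannot be told apart.

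Lyn and Blk were the most abundant of the 8 transcripts in every group. FPKM is scaled by transcript length, so levels of different genes can be set side by side. In young FO B cells the order was Blk, Lyn, Csk, Lck, Fyn, Fgr, Yes1 and Src, with means of 178, 171, 116, 38.1, 27.7, 16.5, 0.303 and 0.0206 FPKM. In aged FO B cells Lyn stood before Blk, at 178 and 162 FPKM, and the rest of the order was the same. The ranges of Lyn and Blk overlapped in both FO B cell groups, and no other neighbours in the order overlapped there. In ABCs the order was Lyn, Blk, Csk, Fgr, Lck, Fyn, Yes1 and Src, with Fgr moved ahead of Lck and Fyn, and the ranges of Lck and Fyn overlapped.

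**Figure D1:**
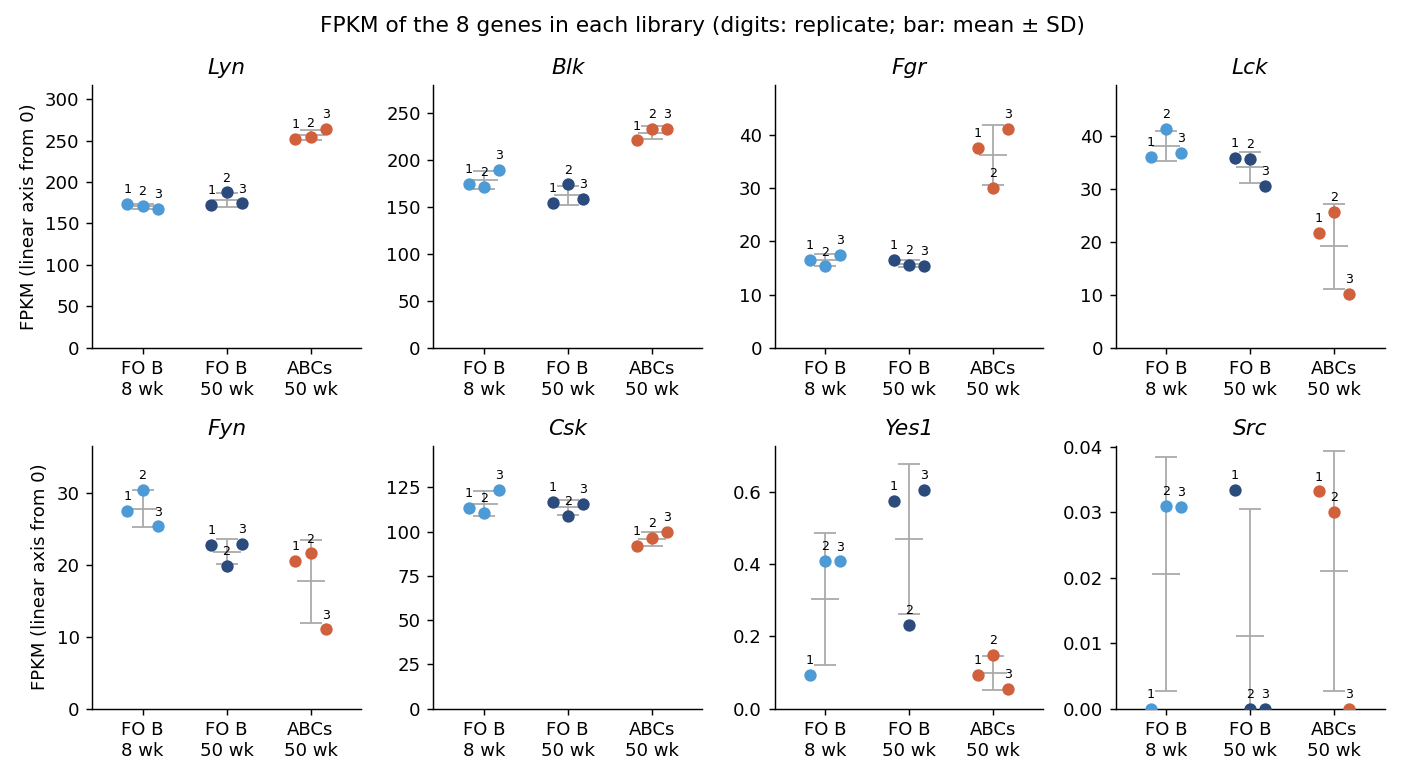
FPKM of each of the 8 genes (linear axes from 0, scaled per gene) in the 3 libraries of young FO B cells, aged FO B cells and ABCs, with replicate numbers and mean ± SD (n = 3). Fgr, Lyn and Blk sit higher in all 3 ABC libraries than in any FO B library, Csk sits lower, and replicate 3 of the ABCs is the lowest library for Lck and Fyn.

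Among the 6 genes with a mean of 1 FPKM or more, Fgr showed the largest relative difference between ABCs and either FO B group. It was at 16.6, 15.3 and 17.5 FPKM in young FO B cells, 16.6, 15.5 and 15.4 FPKM in aged FO B cells, and 37.6, 30.1 and 41.2 FPKM in ABCs. Every ABC library lay above every FO B library, and the FO B groups overlapped. The mean in ABCs was 2.29-fold that in aged FO B cells, a log2 fold change of 1.14 ± 0.12 (SE), and 2.21-fold that in young FO B cells (log2 fold change 1.09 ± 0.12). Both comparisons share the ABC libraries. The log2 fold change against aged FO B cells lay between 1.04 and 1.31 in all other settings. Against young FO B cells other settings gave 0.99 to 1.21 for Fgr and -1.29 to -0.67 for Lck, so the order of these genes by size was not settled there.

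Lyn was at 174, 171 and 167 FPKM in young FO B cells and 173, 187 and 174 FPKM in aged FO B cells. In ABCs it was at 252, 254 and 264 FPKM. The ABC libraries lay close together, and all were above the FO B libraries. The difference from aged FO B cells was 1.44-fold (log2 fold change 0.53 ± 0.06) and that from young FO B cells 1.50-fold (log2 fold change 0.59 ± 0.05).

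Blk, a kinase largely restricted to the B lineage, was at 174, 171 and 189 FPKM in young FO B cells. It was at 154, 174 and 158 FPKM in aged FO B cells and 221, 233 and 233 FPKM in ABCs. The ABCs were again above all FO B libraries, while the FO B groups overlapped. The mean in ABCs was 1.41-fold that in aged FO B cells (log2 fold change 0.50 ± 0.07) and 1.28-fold that in young FO B cells (log2 fold change 0.36 ± 0.06).

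Lck lay in the opposite direction. Its levels were 36.1, 41.3 and 36.8 FPKM in young FO B cells, 35.9, 35.7 and 30.6 FPKM in aged FO B cells and 21.7, 25.7 and 10.2 FPKM in ABCs. All ABC libraries were below all FO B libraries, and replicate 3 of the ABCs was far below the other two. The mean was 1.78-fold lower in ABCs than in aged FO B cells (log2 fold change -0.89 ± 0.30) and 1.99-fold lower than in young FO B cells (log2 fold change -1.04 ± 0.30). Without replicate 3 of the ABCs the log2 fold changes were -0.51 and -0.67.

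Fyn was at 27.5, 30.4 and 25.3 FPKM in young FO B cells and 22.8, 19.9 and 22.8 FPKM in aged FO B cells. In ABCs it was at 20.5, 21.5 and 11.0 FPKM. Only replicate 3 of the ABCs was below the aged FO B cells, and the other ABC libraries were within their range. The log2 fold change against aged FO B cells was -0.34 ± 0.23, and without that library it was -0.05. Against young FO B cells it was -0.67 ± 0.23, and -0.38 without that library.

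Lck and Fyn are T cell kinases as well, so the T cell markers were read in the same libraries. Of 13 T cell markers in the files, 8 were under 1 FPKM in all 9 libraries, and the summed level of the list was 339 to 380 FPKM in young FO B cells, 356 to 401 FPKM in aged FO B cells and 916 to 1031 FPKM in ABCs, almost all of it Cd2. Cd3e was at 0 in all libraries but replicate 1 of the ABCs, where it was at 0.0996 FPKM, and Cd4 and Cd8a did not exceed 0.140 FPKM in any library. Cd3g was at most 0.139 FPKM in FO B cells and at 9.63, 37.0 and 4.93 FPKM in ABCs. Lat was at 0.881, 1.11 and 0.665 FPKM in young FO B cells, 2.53, 0.594 and 0.991 FPKM in aged FO B cells and 0.239, 0.864 and 0 FPKM in ABCs, and Zap70 at most 1.19 FPKM in FO B cells and at most 0.358 FPKM in ABCs. Markers of T cells thus lay in both directions between the groups. Among the ABC libraries, replicate 2 was the highest and replicate 3 the lowest for Lck and Fyn. Of the T cell markers, Cd3g, Lat, Cd3d, Cd28 and Bcl11b had this order, all but Cd3g under 1 FPKM in ABCs. Cd3d was at 0.545, 0.592 and 0 FPKM. The other markers, Cd2, Cd5, Cd8b1, Zap70, Cd3e, Cd247, Cd4 and Cd8a, did not have it. Cd5 was at 0.656, 2.43 and 2.86 FPKM and Zap70 at 0.358, 0.108 and 0.119 FPKM in ABCs. The part of T cells in the levels of Lck and Fyn was not tested.

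Csk was lower in ABCs. It was at 113, 111 and 124 FPKM in young FO B cells, 117, 109 and 115 FPKM in aged FO B cells and 92.0, 96.2 and 99.8 FPKM in ABCs. The ABC libraries did not overlap with either FO B group, although the distance was small. The difference from aged FO B cells was 1.19-fold, with a log2 fold change of -0.24 ± 0.06, which was -0.34 with quantile normalization and -0.06 with scaling to the upper quartile. That from young FO B cells was 1.21-fold (log2 fold change -0.27 ± 0.07).

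Src and Yes1 were close to absent from these cells. Src was at 0 in 4 libraries and at most 0.0335 FPKM in the others, which is about 0.95 reads. At this depth 3 reads of Src would give between 0.0870 and 0.106 FPKM. Every level of Src was under this, so differences between the groups could not be read for it. Yes1 was at 0.0925, 0.409 and 0.407 FPKM in young FO B cells, 0.574, 0.232 and 0.606 FPKM in aged FO B cells and 0.0928, 0.149 and 0.0544 FPKM in ABCs. Its highest value corresponds to about 22.1 reads and its lowest to about 1.84 reads, so these levels carry a large counting error. The mean of Yes1 was 4.77-fold lower in ABCs than in aged FO B cells, with no overlap, and 3.07-fold lower than in young FO B cells, with overlap. Neither gene reached the mean of 1 FPKM required for a fit.

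**Figure D2:**
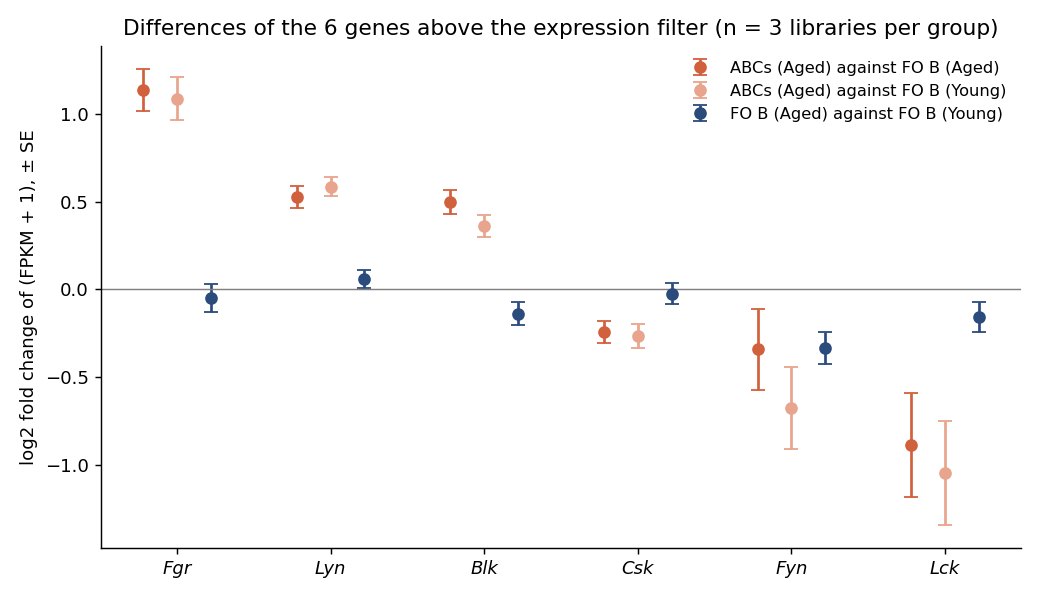
Log2 fold change of (FPKM + 1) with its SE for the 6 genes above the filter of 1 FPKM, in ABCs (Aged) against FO B (Aged), ABCs (Aged) against FO B (Young) and FO B (Aged) against FO B (Young), with n = 3 libraries per group. Fgr (1.14), Lyn (0.53) and Blk (0.50) lie above 0 in ABCs against FO B (Aged) and Csk (-0.24), Fyn (-0.34) and Lck (-0.89) below it, while the 6 points of the age comparison lie between -0.33 and 0.06.

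Across the whole transcriptome, limma on log2(FPKM + 1), with a false discovery rate (FDR) under 0.01, called 1254 genes higher in ABCs than in aged FO B cells (12.0% of 10412 genes tested) and 818 lower (7.86%). With scaling to the upper quartile these were 1405 and 273 genes, and the median log2 fold change of all genes moved from -0.01 to 0.15. Of the 8 genes, 6 were fitted and 3 of them, Fgr, Lyn and Blk, were called higher. Leaving out aged FO replicate 1 or 3 ended the call of Blk. The groups did not overlap for 5 of the 6 genes, beside 52.6% of all genes tested. The median log2 fold change was 0.13 for the 6 genes and -0.01 for all genes. Against young FO B cells, where 13.8% of 10438 genes were called higher (1440 genes, or 1148 with scaling to the upper quartile) and 9.82% lower (1025 genes, or 441), the 3 genes called were again Fgr, Lyn and Blk, and the median of the 6 was 0.05. The call of Blk in this comparison was lost in several settings. As the ABC libraries are the same and the genes were chosen with these values known, nothing is read from the counts. An absolute log2 fold change above 2.3 in addition to the FDR was reached by 1.92% of all genes and by none of the 6, whose largest was that of Fgr.

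The age comparison in FO B cells was not used to choose the genes and was tested. limma called 47 of 10122 genes at an FDR under 0.05 (0.464%), 35 of them higher and 12 lower, or 24 and 27 with scaling to the upper quartile. It called 0 of the 6 fitted genes, of which 1, Fyn, had an unadjusted p under 0.05, as had 1298 of all genes. Fyn was 1.27-fold lower in aged FO B cells (log2 fold change -0.33, 95% interval -0.54 to -0.12, limma FDR = 0.18, and between 0.0786 and 0.682 in other settings). All 3 libraries of aged mice were below those of young mice for Fyn, and likewise for Lck, for which the log2 fold change was -0.16 (95% interval -0.35 to 0.04, limma FDR = 0.491). Such separation of the groups was seen for 18.6% of all genes tested. For Blk the log2 fold change was -0.14 (95% interval -0.29 to 0.01), for Lyn 0.06 (-0.06 to 0.18), for Fgr -0.05 (-0.24 to 0.13) and for Csk -0.02 (-0.16 to 0.12), with limma FDRs of 0.425, 0.689, 0.85 and 0.91. Mean FPKM was also compared by exact permutation, two-sided, over the 20 orders of 3 libraries against 3. Its p was 0.1 for Fyn and Lck in this exact test, the smallest that the design allows. It was 0.2 for Lyn and Blk, 0.4 for Yes1, 0.6 for Fgr, 0.8 for Csk and 1.0 for Src in the same exact test. With 3 libraries per group, differences with age as large as the ends of these intervals are not excluded.

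To describe the balance between the kinases, the FPKM of Fgr, Lyn, Fyn, Lck, Blk, Src and Yes1 were summed per library. The sum was 428, 430 and 437 FPKM in young FO B cells, 403, 432 and 402 FPKM in aged FO B cells and 553, 564 and 560 FPKM in ABCs. The sum of these 7 kinases was thus higher in every ABC library than in any FO B library. Lyn made up 45.9% ± 1.15 (SD, n = 3) of the sum in ABCs and 43.2% ± 0.264 (SD, n = 3) in aged FO B cells, and Blk 40.9% ± 0.914 and 39.3% ± 0.949. Fgr made up 6.50% ± 1.04 in ABCs and 3.85% ± 0.26 in aged FO B cells. The share of Lck was 3.43% ± 1.43 in ABCs and 8.26% ± 0.639 in aged FO B cells, and that of Fyn 3.16% ± 1.04 and 5.31% ± 0.619. In all groups Lyn and Blk together formed the bulk of the sum, and the smaller shares were divided differently, with Fgr first in ABCs and Lck first in FO B cells.

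The level of Csk relative to this sum differed more than the level of Csk itself. Csk FPKM was 26.4%, 25.7% and 28.3% of the sum in young FO B cells, 29.0%, 25.2% and 28.8% in aged FO B cells and 16.6%, 17.0% and 17.8% in ABCs. The ABC libraries were far below the FO B libraries, and a percentage within a library does not move with a scaling factor between libraries. These are transcript levels, and neither protein nor phosphorylation was measured in these files.

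**Figure D3:**
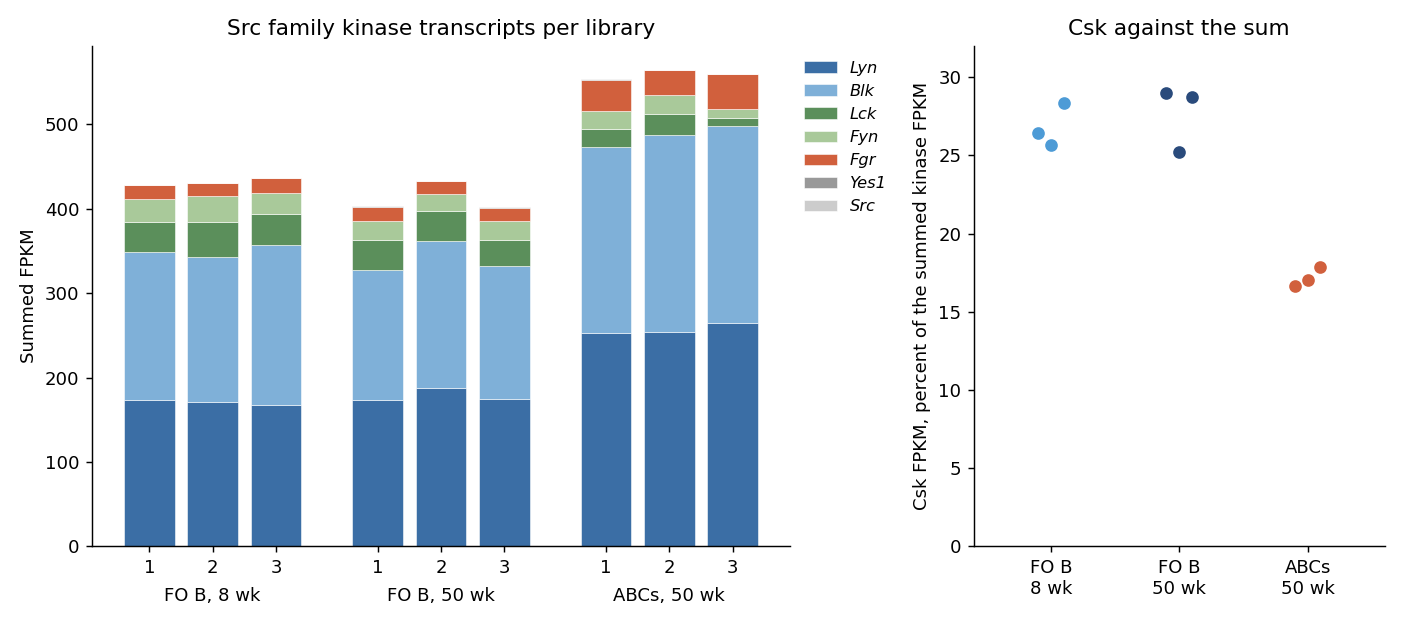
Left, FPKM of the 7 Src family kinases, stacked per library (replicates 1 to 3 of FO B cells at 8 wk, FO B cells at 50 wk and ABCs at 50 wk, linear axis from 0). Right, Csk FPKM as a percentage of the summed FPKM of the 7 kinases, 1 point per library: ABCs lie at 16.6% to 17.8% and FO B cells at 25.2% to 29.0%.

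For Fgr and Lck, the genes that were furthest apart in direction, the 250 bases upstream of the RefSeq start sites are shown, on GRCm38.p6 and 5′ to 3′ on the gene's strand. RefSeq windows were found for 6 of the 8 genes. The letters GGAAGT, a core of sites bound by ETS family factors, are in capitals. Lck has a distal and a proximal start site, whose transcripts the gene-level FPKM does not separate. The window of Fgr is chr4:132973845-132974094 on the plus strand, that of the distal start of Lck chr4:129573642-129573891 and that of its proximal start chr4:129558373-129558622, both on the minus strand.
Fgr: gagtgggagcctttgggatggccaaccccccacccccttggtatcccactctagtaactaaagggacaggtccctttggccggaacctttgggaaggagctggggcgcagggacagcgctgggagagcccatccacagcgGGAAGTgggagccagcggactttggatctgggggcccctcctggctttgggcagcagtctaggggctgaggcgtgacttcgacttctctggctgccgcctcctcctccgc
Lck distal: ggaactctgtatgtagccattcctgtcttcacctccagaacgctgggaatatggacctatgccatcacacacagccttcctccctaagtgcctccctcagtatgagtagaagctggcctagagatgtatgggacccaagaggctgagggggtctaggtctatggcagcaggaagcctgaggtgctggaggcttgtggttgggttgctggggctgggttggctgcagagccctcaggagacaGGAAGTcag
Lck proximal: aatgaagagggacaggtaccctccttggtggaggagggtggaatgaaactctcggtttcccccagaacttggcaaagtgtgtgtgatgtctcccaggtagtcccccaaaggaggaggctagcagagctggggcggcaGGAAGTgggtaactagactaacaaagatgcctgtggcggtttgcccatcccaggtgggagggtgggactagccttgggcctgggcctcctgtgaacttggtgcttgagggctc
Each of these 3 windows holds 1 match to GGAAGT, in the direction of the gene, which begins 110 bases upstream of the start in Fgr, 9 bases upstream of the distal start of Lck and 113 bases upstream of its proximal start. Searched on both strands, these letters occur in 19.7% of 32851 RefSeq windows of this length. The letters CAGGTG, an E-box, occur in 17.2% of all windows and once in the proximal window of Lck, and AGGTGT, a core of T-box sites, occurs in 11.8% of all windows and in none of these 3. The last 5 letters of CAGGTG and the first 5 of AGGTGT coincide, so 1 stretch can match both. Binding was not measured, and a match is a description of the letters only.

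The genes whose levels ran most nearly parallel over the 9 libraries were read for the 4 genes with the largest absolute log2 fold change, by Pearson correlation of log2(FPKM + 1) across 10375 genes. The libraries form 3 groups of which 1 stands far from the others, so a gene that differs in ABCs gains a high value from that alone. For Fgr they included Ccl19 (r = 0.995) and Pqlc3 (0.995), and for Lck they were Atp5sl (0.994), Anxa1 (0.988) and Plcb2 (0.987). For Lyn they were Ptpn22 (0.999), Rcn3 (0.998) and Lipc (0.997), and for Blk Slc48a1 (0.990), Ezh2 (0.990) and Adgre5 (0.982). Levels differed widely among them. Ptpn22 was at a mean of 17.6 FPKM in young FO B cells, 23.7 FPKM in aged FO B cells and 179 FPKM in ABCs, a far steeper difference than that of Lyn.

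Genes that regulate, anchor or receive signals from the Src kinases were tested between ABCs and aged FO B cells, in 9 lists drawn up by known role. Of 103 genes, all but Ighm and Ighd were in the files and 87 passed the filter of 1 FPKM. ABCs were higher for 30 of these and lower for 6 (limma, FDR under 0.01), and 26 of these 36 calls held in every other setting of the fit. Over all genes tested, 12.0% were called higher and 7.86% lower, and the counts of each list stand beside these shares. The 30 include Itgax and Itgam, the sort markers of ABCs. As the lists were chosen with earlier results of these data known, the counts and their stability are a description only. Between aged and young FO B cells 1 of 83 passed, Lilrb4a, which was higher in aged mice (log2 fold change 1.40, limma FDR = 0.00872).

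**Figure D4:**
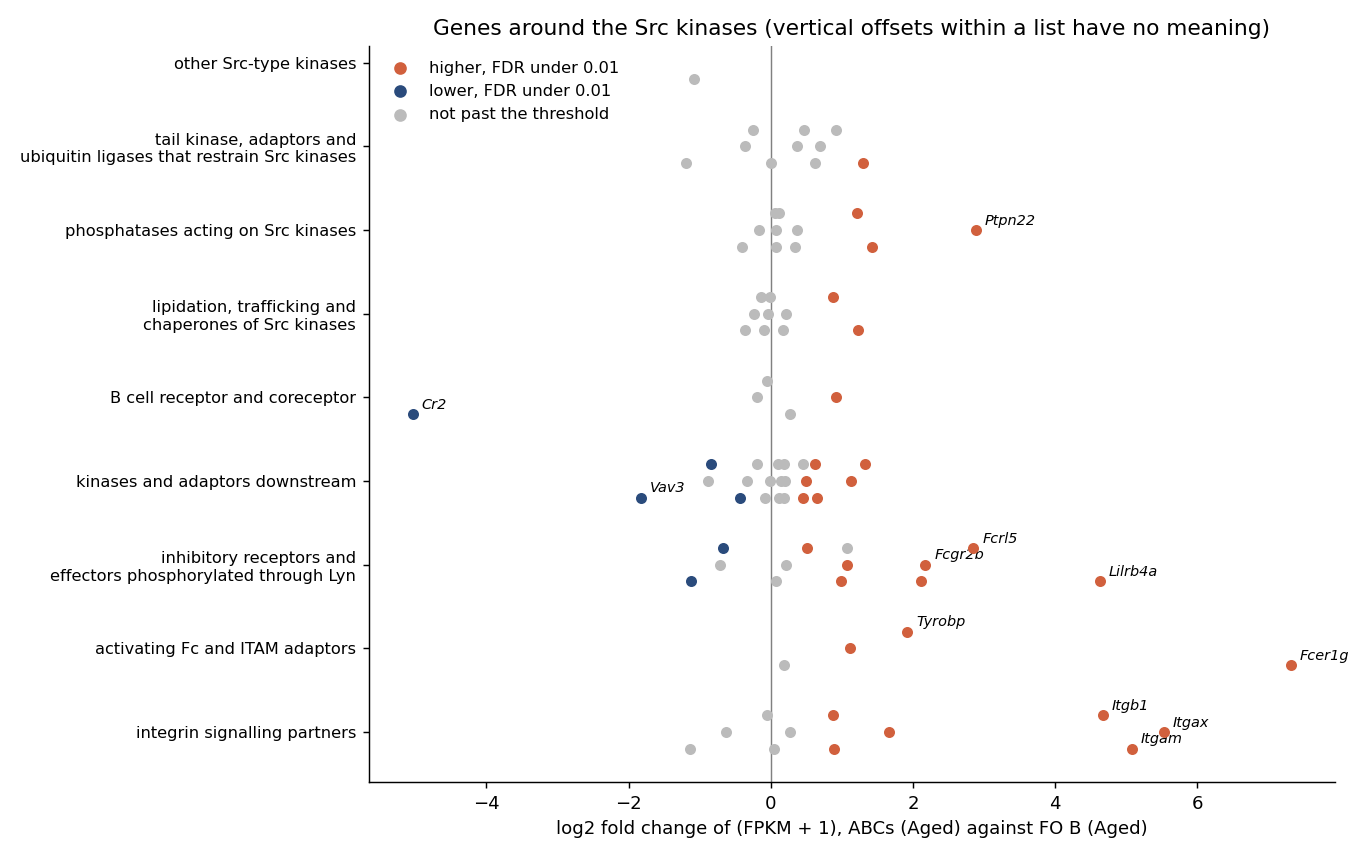
Log2 fold change of (FPKM + 1) in ABCs (Aged) against FO B (Aged) for fitted genes of the 9 lists around the Src kinases (1 point per gene, n = 3 libraries per group). Most called genes lie to the right of 0, from Plcg2 at 0.45 up to Fcer1g at 7.32, and the genes furthest to the left are Cr2 (-5.04) and Vav3 (-1.82).

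Among Src-type kinases listed beside the 8 genes, Srms was named after its values were seen. It was at a mean of 3.71 FPKM in aged FO B cells and 1.19 FPKM in ABCs (log2 fold change -1.08 ± 0.28 (SE), limma FDR = 0.0208) and did not pass.

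Among adaptors and ligases that restrain the kinases, 1 of 10 genes was called. It was Lime1, a transmembrane adaptor that binds Csk and Src kinases, which rose from a mean of 26.3 to 66.2 FPKM (log2 fold change 1.30 ± 0.08, limma FDR = 5.07e-05). Pag1, the adaptor that brings Csk to membrane rafts, was at 12.0, 13.2 and 14.0 FPKM in aged FO B cells and 8.79, 9.51 and 11.7 FPKM in ABCs (log2 fold change -0.36 ± 0.12, limma FDR = 0.0601) and did not pass. The adaptors for Csk thus lay in both directions, and only Lime1 was past the threshold.

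Of the phosphatases that act on Src kinases, 3 of 11 rose and the other 8 were not called. Ptpn22, a phosphatase that binds Csk and acts on the activating tyrosine of Src kinases, rose from 18.6, 31.2 and 21.2 FPKM in aged FO B cells to 162, 156 and 219 FPKM in ABCs (log2 fold change 2.88 ± 0.20, limma FDR = 0.000115). Ptpn1 rose by 1.42 ± 0.11 and Ptpre by 1.21 ± 0.15 on the log2 scale, with limma FDRs of 0.000185 and 0.00106. Ptprc, which encodes CD45, the phosphatase that removes the tail phosphate placed by Csk, was at 293 and 318 FPKM in the respective groups (log2 fold change 0.12, 95% interval -0.01 to 0.25, limma FDR = 0.137). Ptpn6, which encodes SHP-1, was at 908 and 960 FPKM (log2 fold change 0.07, 95% interval -0.26 to 0.40, limma FDR = 0.722).

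Of the enzymes and carriers that anchor and move Src kinases, 2 of 10 genes were higher in ABCs and 0 lower, with a median log2 fold change of -0.02 for the list. Unc119, a carrier that binds the myristoylated end of Src kinases, rose from 48.7 to 116 FPKM (log2 fold change 1.22 ± 0.11, limma FDR = 0.000291), and its relative Unc119b from 27.4 to 51.2 FPKM (log2 fold change 0.87 ± 0.12, limma FDR = 0.00187).

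The antigen receptor chains that Lyn and Blk phosphorylate were not called. Cd79a was at 3168 FPKM in aged FO B cells and 3092 FPKM in ABCs (log2 fold change -0.05, 95% interval -0.38 to 0.28, limma FDR = 0.802), and Cd79b at 2773 and 2431 FPKM (log2 fold change -0.20, 95% interval -0.43 to 0.04, limma FDR = 0.168). In replicate 3 of the ABCs both were lowest, at 2462 and 2112 FPKM. Of the coreceptor genes, Cd81 rose (log2 fold change 0.92 ± 0.15, limma FDR = 0.00357) and Cr2 fell (log2 fold change -5.04 ± 0.55, limma FDR = 0.000636). Cr2 encodes CD21, and both populations were gated as CD21lo.

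Downstream of the kinases, 6 of 21 genes rose and 3 fell, against a median log2 fold change of 0.14 for the list. Syk, the kinase that docks on phosphorylated ITAMs, was at 154, 147 and 149 FPKM in aged FO B cells and 353, 362 and 418 FPKM in ABCs (log2 fold change 1.33 ± 0.08, limma FDR = 5.41e-05). The adaptor gene Lat2 rose by 1.13 ± 0.07, Plcg1 by 0.65 ± 0.13 and Plcg2, the phospholipase of BCR signalling, by 0.45 ± 0.09 on the log2 scale (limma FDRs of 7.51e-05, 0.00876 and 0.00771). Btk, a Tec family kinase activated by Lyn and Syk, lay the other way, at 115, 109 and 113 FPKM in aged FO B cells and 90.7, 83.8 and 73.9 FPKM in ABCs (log2 fold change -0.44 ± 0.09, limma FDR = 0.00701). Ptk2b, which encodes the focal adhesion kinase relative Pyk2, fell by 0.84 ± 0.07 and Vav3, a guanine nucleotide exchange factor, by 1.82 ± 0.18 (limma FDRs of 0.000187 and 0.00044). Blnk, the scaffold for Btk and the phospholipase, was at 311 and 332 FPKM (log2 fold change 0.10, 95% interval -0.04 to 0.23, limma FDR = 0.238). The kinases that act next after the Src family were therefore split, with Syk 2.52-fold higher in ABCs and Btk at 0.738 of its level in FO B cells.

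Inhibitory receptors that Lyn phosphorylates, together with their effectors, had 7 genes higher and 2 lower of 13, and a median log2 fold change of 0.99. Cd22 was at 437, 403 and 428 FPKM in aged FO B cells and 861, 867 and 926 FPKM in ABCs (log2 fold change 1.06 ± 0.07, limma FDR = 6.33e-05). Fcgr2b rose from 182, 149 and 190 FPKM to 804, 738 and 803 FPKM (log2 fold change 2.17 ± 0.10, limma FDR = 1.78e-05). Lilrb4a, which encodes a receptor with ITIMs, and Fcrl5 rose by 4.63 ± 0.28 and 2.85 ± 0.10 on the log2 scale (limma FDRs of 5.82e-05 and 8.85e-06). The paper describes both an ITAM and an ITIM in Fcrl5, so its place on this list does not make it inhibitory only. Fcrl1, a related B cell receptor with activating motifs that was placed on this list with its family, fell by 1.12 ± 0.06, and Pecam1, an adhesion molecule with ITIMs, fell by 0.67 ± 0.13 (limma FDRs of 4e-05 and 0.00616).

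On the list of activating receptors and their adaptors, 3 of 4 fitted genes were higher in ABCs, while 5 of the 9 listed genes were under 1 FPKM in every library. Hcst, named after its values were seen, was fitted and not called (log2 fold change 0.19 ± 0.18, limma FDR = 0.439). Fcer1g, the Fc receptor gamma chain with an ITAM, was at 1.38, 1.14 and 10.4 FPKM in aged FO B cells and at 418, 458 and 1219 FPKM in ABCs (log2 fold change 7.32 ± 0.69, limma FDR = 0.000338). Replicate 3 of the ABCs, the lowest library for Lck and Fyn, was the highest for Fcer1g. Tyrobp, the adaptor DAP12, rose from 70.9, 72.6 and 77.9 FPKM to 264, 287 and 292 FPKM (log2 fold change 1.91 ± 0.07, limma FDR = 8.99e-06). The receptor gene Pira2 rose by 1.12 ± 0.18 (limma FDR = 0.00352).

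Of the integrin genes and partners, 6 of 11 were higher in ABCs and 0 lower, with 5 not called. Itgax and Itgam, which encode CD11c and CD11b, rose by 5.53 ± 0.14 and 5.07 ± 0.17 on the log2 scale, but these were the sort markers of ABCs and are no finding. Itgb1 rose from a mean of 13.0 to 363 FPKM (log2 fold change 4.67 ± 0.17, limma FDR = 9.66e-06).

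Fgr, Fcer1g and Tyrobp are all myeloid genes as well, and macrophage and monocyte markers were read beside them. The summed level of 15 such markers was 37.9 to 61.7 FPKM in young FO B cells, 22.8 to 30.6 FPKM in aged FO B cells and 277 to 324 FPKM in ABCs. In ABCs 8 of the 15 were under 1 FPKM in every library, and 2 of the 6 fitted, Adgre1 and Ly6c2, were called higher. Adgre1, which encodes F4/80, was at 174, 222 and 199 FPKM in ABCs and at most 3.58 FPKM in FO B cells. Ly6c2 was at 77.3, 84.1 and 61.3 FPKM in ABCs and at most 31.2 FPKM in FO B cells. Csf1r was at 0.831, 0.301 and 0.429 FPKM in ABCs, and Mertk, Cd14 and Fcgr1 were at most 0.310 FPKM in any library. Markers of B-1 cells summed to 237 to 305 FPKM in ABCs and 10.2 to 14.4 FPKM in FO B cells, with 4 of 6 called higher, those of plasma cells to 976 to 1275 FPKM and 440 to 471 FPKM, with 2 of 6 called higher, and those of dendritic cells to 14.4 to 18.7 FPKM and 3.14 to 5.70 FPKM, with 3 of 4 called higher. Of NK cell markers, which summed to 29.5 to 38.2 FPKM in ABCs and at most 3.73 FPKM in FO B cells, Prf1 was called. Of marginal zone B cell markers 2 were called higher and 3 lower of 8, of B lineage markers 1 higher, Cd22, and 1 lower, Pax5, and none of the 2 fitted neutrophil markers was called. The part of these other populations in the levels of the Src family kinase genes was not tested.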

How the data were processed

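Per the labels and the study's methods, RNA of sorted splenic B cells was turned into cDNA (SMART-Seq HT), then into NexteraXT libraries, and single-end reads were aligned to mm10. The authors deposited gene-level FPKM values, in a file for each library. The submitters' processing notes name TopHat2 2.1.1, Bowtie2 2.2.8, SAMtools 0.1.18 and Cuffdiff 2.2.1, while the paper gives other versions for some of these. The gene annotation is not given in the sources used here. Groups were taken from the sample titles.

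The deposited FPKM values were put on a log2(FPKM + 1) scale. limma 3.58.1 (R 4.3.3, lmFit and trended eBayes) was fitted to the 6 libraries of each comparison, for genes averaging 1 FPKM or more in them. FDRs are Benjamini-Hochberg values over all genes tested. Fold changes on this scale understate the change of low genes. Calls were made at an FDR under 0.01 with ABCs and 0.05 between FO B groups. The step was checked on simulated data with the means and spread of the FO B groups, which does not cover the comparisons with ABCs. Libraries are said to come from 3 mice per group, and p-values measure the spread between these libraries only. Read depths and read numbers were approximated, with GENCODE M21 lengths, from the value of 1 read in 567 genes with 1 annotated transcript, and cover counting error only. Tables and figures were made with Python 3.11.15, numpy 2.4.6, pandas 2.3.3 and matplotlib 3.10.9. Sequences are from RefSeq and GENCODE M21 on GRCm38.

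Members, gene lists and tests were chosen with earlier results of these data known. Named are the 8 genes in every library. From each list the genes called in ABCs against aged FO B cells with the 3 largest changes per direction are named, with a set of core genes (Pag1, Ptprc, Ptpn6, Ptpn22, Cd79a, Cd79b, Syk, Btk, Blnk, Plcg2, Fcer1g, Tyrobp, Cd22 and Fcgr2b) whatever their values, and any marker gene. The settings varied were the pseudocount (0.1 or 0.01), the filter (none, or a mean of 5 FPKM), the scaling (quantile, TPM or upper quartile), the trend of eBayes, a joint fit of all 9 libraries, a block for the replicate number, a log2 fold change above 2.3, Src and Yes1 left out of the sum, and leaving out each library. Some genes of the lists, and a sum with 1 of them added, are not reported here. The qPCR, flow cytometry and transgenic mouse experiments were not analysed here.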

Additional observations from a re-analysis of the deposited data

How the results depend on the processing

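Since the 8 genes were chosen with the ABC values known, their calls there are a description and no sign of stability. At the added log2 fold change above 2.3, 0 of the fitted genes were called in either ABC comparison and 8 of the 36 genes of the lists around the Src kinases. With all 9 libraries in the fit, 5 genes were called against young FO B cells, with Csk and Lck added. Csk was also called in both ABC comparisons with quantile normalization, and Lck against young FO B cells without replicate 3 of the ABCs. Blk lost its call against young FO B cells with upper quartile scaling, quantile normalization, eBayes without a trend, the block, and without replicate 1 or 2 of the young mice or replicate 2 of the ABCs. Among the 8 genes and the named genes of the lists, the sign turned for Lyn, Csk, Cd79a, Blnk and Ptpn6. In the age comparison the log2 fold change of Lyn became -0.070 with upper quartile scaling, and that of Csk ranged from -0.057 to 0.024 when 1 library was left out, with 0.0059 without aged FO replicate 2. In ABCs against aged FO B cells, Cd79a became 0.027 with quantile normalization and 0.13 with upper quartile scaling, and ranged from -0.16 to 0.10 when 1 library was left out. Blnk became -0.035 with quantile normalization, and Ptpn6 ranged from -0.029 to 0.22 when 1 library was left out. For Cd79a and Ptpn6 the library that turned the sign was replicate 3 of the ABCs. The cause was not tested. Of the named genes of the lists, Btk, Plcg1, Plcg2, Cd81, Pecam1, Pira2 and Unc119b lost the call in at least 1 setting.

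Over all genes, leaving out 1 library gave 678 to 1276 genes higher and 298 to 848 lower in ABCs than in aged FO B cells, with the lowest counts without aged FO replicate 1, 866 to 1540 and 420 to 1140 against young FO B cells, and 19 to 69 calls in the age comparison, which had 15 with no filter, 18 with all 9 libraries and 30 with eBayes without a trend. At the added fold threshold 200 genes became 401 with a pseudocount of 0.1.

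Deviations of same-numbered libraries from their group means had correlations of -0.09 to 0.14 over the 3 comparisons. Between ABCs and aged FO B cells these were 0.085, -0.019 and 0.108 for replicates 1, 2 and 3. Pairs with unlike numbers lay between -0.108 and 0.059 there. Whether the numbers pair these samples could not be settled from such values, and the main fits were unpaired. With the replicate block 3 genes were called against aged FO B cells, 2 against young FO B cells, 0 in the age comparison and 32 genes of the lists. Over all genes the block gave 964 genes higher and 535 lower in ABCs than in aged FO B cells, and 965 and 544 against young FO B cells. Depth limits Src and Yes1.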
